A study of Homo sapiens with 12 samples.

Results

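Families of enzymes that write and erase methyl and acetyl groups on histones and methyl groups on DNA were followed across 4 groups of melanoma libraries. Members were taken by symbol from the 26499 gene symbols of the count files: the numbered KDM, KMT, SETD, KAT, HDAC and SIRT genes, with DNMT1, DNMT3A, DNMT3B, TET1 to TET3, EZH1 and EZH2. That gave 67 genes, after 3 antisense symbols (HDAC11-AS1, KDM4A-AS1 and KMT2E-AS1) had been dropped. They comprise 3 DNA methyltransferases, 3 TET dioxygenases, 2 EZH, 5 KMT and 10 SETD proteins, 19 lysine demethylases, 7 acetyltransferases, 11 deacetylases and 7 sirtuins. The rule uses gene names and no measured value, so it also takes in members known mainly for other substrates, such as HDAC6 and SIRT5. Of the 67, 65 passed the filter on low counts, and KDM4E and KDM5D had no read in any of the 12 libraries, which allows at most 0.105 CPM in the shallowest one. CPM is the number of reads per 1000000 reads in genes, after scaling of the library sizes.

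The cells were A375 and SKMel28, established human melanoma lines, each grown with 10% FBS. The resistant derivative of each line was kept in 1 µmol/L vemurafenib, an inhibitor of mutant BRAF kinase, and for its sensitive counterpart no drug is named. An effect of the drug itself therefore cannot be told apart from one of resistance, and whether a resistant derivative is 1 clone or a pool of cells is not given in the sources used here. The question of the series is whether IGF1 signalling has a role in escape from BRAF and MEK inhibitors. Each of the 4 groups held 3 poly(A)-selected libraries with 28496518 to 37721363 reads in genes. No label ties the 3 to separate cultures, so the spread that p-values rest on is that between libraries, which may be technical.

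The labelled lineage was checked with 8 melanocyte genes. Their summed level was 7268 to 7708 CPM in the sensitive SKMel28 libraries and 10920 to 11080 CPM in the resistant ones, against 372.9 to 383.4 CPM in sensitive A375 and 31.28 to 33.69 CPM in resistant A375. MLANA and PMEL, pigment cell antigens, stayed below 1 CPM in A375, and TYR had no read there. SOX10, a transcription factor of the neural crest lineage, averaged 325 ± 6.005 CPM in sensitive and 0.138 ± 0.0487 CPM in resistant A375. MITF made up most of the resistant A375 sum, at 31.0 CPM, below 39.6 CPM in sensitive A375 (edgeR adjusted p = 6.89e-09). In SKMel28 MITF averaged 807 CPM in resistant and 508 CPM in sensitive libraries (3.34e-21). In A375, 2 of the 8 (TYRP1 and DCT, below 1 CPM) were higher and 3 lower at an edgeR adjusted p below 0.05, beside 25% and 26.3% of all genes. In SKMel28, 5 of the 8 were higher and 3 lower, beside 34.2% and 35.8% of all genes. TYRP1 rose there from 218 to 2037 CPM, while S100B fell from 465 to 185, SOX10 from 722 to 569 and DCT from 266 to 218 CPM. Lineage markers thus moved with the groups of both lines, and their part in the results below was not tested. Summed levels of keratinocyte and fibroblast markers also differed between the groups. The summed level of 5 keratinocyte markers was 83.3 to 93.72 CPM in resistant and 120.4 to 124.3 CPM in sensitive A375, and 28.47 to 34.14 and 66.36 to 70.4 CPM in SKMel28, with KRT1 at 0 and most of the sum from KRT10. KRT14 fell in A375 from 25.5 ± 1.96 to 0.499 ± 0.185 CPM (edgeR adjusted p = 9.64e-29). The sum of 6 fibroblast markers was 16.98 to 20.75 CPM in resistant and 23.48 to 25.67 CPM in sensitive A375, and 16.25 to 19.95 and 25.94 to 26.78 CPM in SKMel28. Single fibroblast markers did not all follow these sums. By edgeR, COL1A1 was called lower in A375 and higher in SKMel28, where LUM and COL1A2 were called lower. The sum of 4 endothelial markers reached at most 3.383 CPM, and PECAM1 among them rose in A375 from 0.626 to 2.42 CPM (edgeR adjusted p = 8.18e-06). Of the 5 leukocyte markers, CD3E was at 0 and PTPRC averaged at most 0.0854 CPM, while CD68 averaged 30.97 CPM in sensitive and 57.5 CPM in resistant A375, and 211 and 761 CPM in SKMel28.

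Histone marks are set by writers and removed by erasers. Acetyl groups placed by lysine acetyltransferases open chromatin and are taken off by zinc-dependent deacetylases and NAD-dependent sirtuins. Methyl groups on histone lysines either mark active genes or silence them, depending on the residue, and DNA methylation, placed by the DNMT enzymes and oxidised by the TET enzymes, silences promoters rich in CpG. In melanoma, EZH2, the demethylases of the KDM5 group and TET-dependent hydroxymethylation are among the most studied of these factors, in part because drug-tolerant cells have been described as carrying altered chromatin.

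In resistant A375 the enzymes that changed mostly fell, and in resistant SKMel28 most of those that changed rose. Calls rest on edgeR's two-sided quasi-likelihood test with an adjusted p below 0.05, where adjustment covered each of the 15506 genes fitted. In A375, 8 of the 65 tested members (12.3%) were called higher, beside 25% of all genes, and 23 (35.4%) were called lower, beside 26.3% of all genes. The 8 were HDAC7, KAT2A, KAT2B, KDM3B, KDM4B, SETD7, SIRT2 and SIRT5. In SKMel28, 28 members (43.1%) were called higher, beside 34.2% of all genes, and 16 (24.6%) lower, beside 35.8%. The split depends in part on scaling. With DESeq2's size factors it became 12 higher and 21 lower in A375, with DESeq2's own test 11 and 19, and with library size alone 22 and 20 in SKMel28.

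Most changes were small. The median absolute log2 fold change of the members was 0.17 in A375, where that of all genes was 0.24, and 0.31 in SKMel28, where that of all genes was 0.46. At 1.5-fold or more, 4 members were called lower in A375 (HDAC1, KDM1A, KDM4D and TET2, 6.15%, beside 10.8% of all genes) and 0 higher, beside 7.63% of all genes. That 0 came from edgeR, and the count was also 0 at an unadjusted p below 0.05 and in DESeq2. In SKMel28 4 members were called higher by that margin (HDAC4, HDAC5, KDM8 and TET2, 6.15%, beside 15.8%) and 6 lower (HDAC6, KDM5C, KDM6A, SETD1B, SIRT4 and SIRT7, 9.23%, beside 19.3%).

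The change differed between the lines for 43 members (66.2%), beside 63.8% of all genes, so differing between lines was about as common among these enzymes as elsewhere. Of all 65, 13 (20%) were called lower in A375 and higher in SKMel28, beside 9.86% of all genes. They were DNMT1, HDAC1, HDAC2, HDAC3, HDAC4, HDAC5, KAT7, KDM1A, KDM4A, KMT2A, KMT2E, SETD5 and TET2. KAT2A and KDM4B went the other way (3.08%, beside 10.2%). KAT2B, KDM3B and SIRT5 rose in both lines (4.62%, beside 8.65%), and HDAC6, KDM6B and KDM7A fell in both (4.62%, beside 9.83%). Not all 13 members of the first group are firm. DNMT1, KAT7, KMT2A and KMT2E each lost a call under some of the alternative fits, as given with their families below. HDAC3 is borderline too. Its A375 call (adjusted p = 0.0478) was lost without any 1 of the 6 A375 libraries, with p from 0.0576 to 0.356, and with DESeq2, its size factors, library-size scaling or no low-count filter (0.167 to 0.245).

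**Figure D1:**
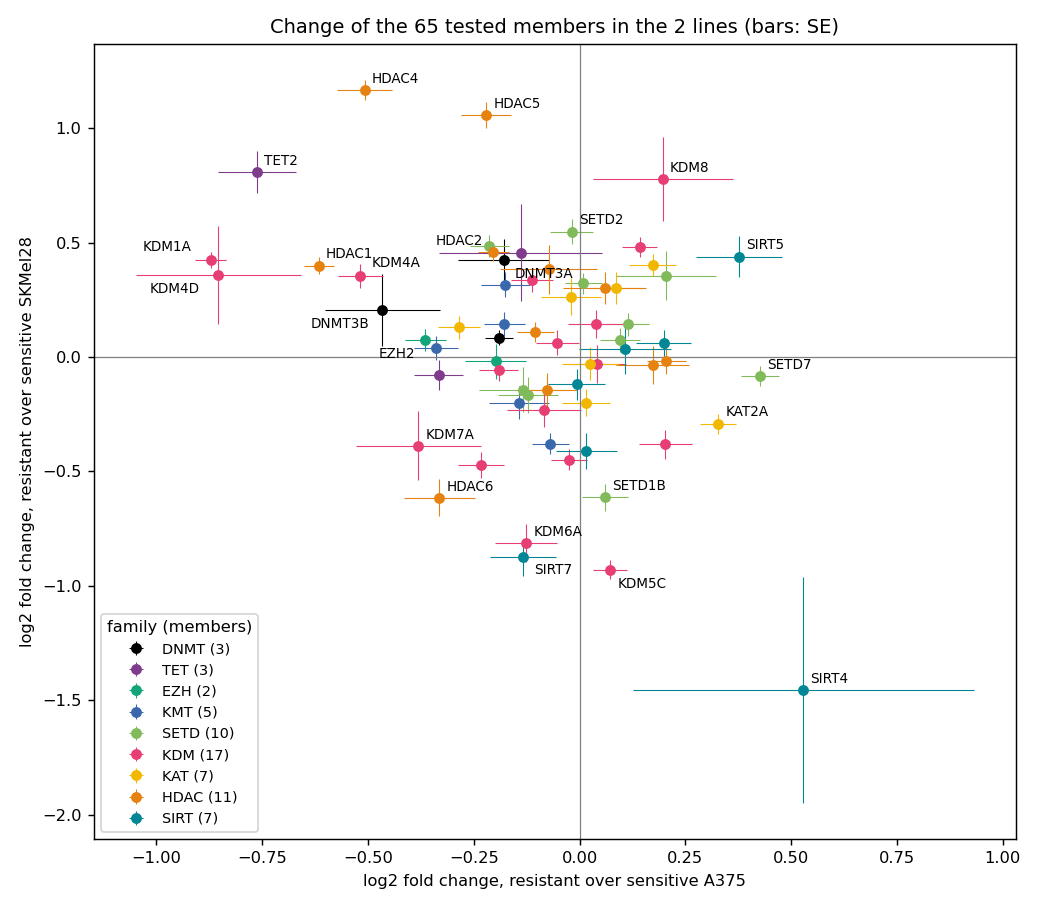
Log2 fold change of each of the 65 tested members in SKMel28 (vertical axis) against that in A375 (horizontal axis), resistant over sensitive, coloured by family, with standard errors as bars. HDAC4, HDAC5, TET2, KDM1A and HDAC1 lie in the upper left area, lower in resistant A375 and higher in resistant SKMel28, while KDM5C, KDM6A and SIRT7 lie below the centre line and near 0 on the A375 axis.

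HDAC4, a class IIa deacetylase that shuttles between nucleus and cytoplasm, showed the largest difference in change among members at 1 CPM or more. It stood at 238, 217 and 222 CPM in the resistant SKMel28 libraries and at 98.1, 102 and 101 CPM in the sensitive ones. In A375 it stood at 11.01, 11.1 and 11.7 CPM in resistant and 15.04, 16.5 and 16.6 CPM in sensitive libraries. The groups did not overlap in either line: all resistant SKMel28 libraries were above the sensitive ones and all resistant A375 libraries below. Members named for the largest rises and falls, here and below, had to meet this condition, so it adds no support. The log2 fold change was 1.17 (SE 0.043, edgeR adjusted p = 1.39e-26) in SKMel28 and -0.51 (SE 0.065, edgeR adjusted p = 8.57e-09) in A375. The difference of the changes was -1.67 (SE 0.078, edgeR adjusted p = 1.21e-22).

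HDAC5, its close relative, rose about as strongly in SKMel28 and fell slightly in A375. Its level was 61.9, 67.7 and 67.2 CPM in resistant and 31.1, 31.5 and 32.02 CPM in sensitive SKMel28. In A375 it was 29.97, 27.5 and 29.1 CPM in resistant and 32.1, 34.4 and 34.6 CPM in sensitive libraries. Again no group overlapped its counterpart. The SKMel28 log2 fold change was 1.06 (SE 0.057, edgeR adjusted p = 1.05e-20), that in A375 was -0.22 (SE 0.059, edgeR adjusted p = 0.00154), and their difference was -1.28 (SE 0.082, adjusted p = 7.15e-18).

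TET2, which oxidises methylcytosine as the first step of its removal, crossed over between the lines. Resistant A375 libraries held 9.59, 9.51 and 11.96 CPM, below the 17.2, 16.9 and 18.6 CPM of the sensitive ones. In SKMel28 the order was the reverse, with 21.8, 19.1 and 19.9 CPM in resistant and 11.9, 11.5 and 11.3 CPM in sensitive libraries. No library of one state lay within the range of the other state in the same line. Log2 fold changes were -0.76 (SE 0.092, edgeR adjusted p = 1.82e-09) in A375 and 0.81 (SE 0.091, edgeR adjusted p = 1.35e-10) in SKMel28, a difference of -1.57 (SE 0.13, adjusted p = 2.44e-14).

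KDM1A (LSD1), which removes methyl groups from lysine 4 of histone H3 within the CoREST complex, and HDAC1, the deacetylase of the same complex, showed the same pattern. KDM1A was at 91.5, 96.6 and 92.1 CPM in resistant A375 and 170.1, 169.9 and 173 CPM in sensitive A375. In SKMel28 it was at 241, 238 and 244 CPM in resistant and 179.7, 177 and 182 CPM in sensitive libraries. All 3 resistant libraries were lower in A375 and higher in SKMel28. Its log2 fold changes were -0.87 (SE 0.036, edgeR adjusted p = 5.06e-24) and 0.42 (SE 0.035, edgeR adjusted p = 2.03e-14), and the difference was -1.29 (SE 0.05, edgeR adjusted p = 2.09e-25). HDAC1 went from 227, 233 and 231 CPM in sensitive to 157, 146 and 148 CPM in resistant A375. In SKMel28 it went from 159.7, 161 and 169.9 to 215, 215 and 217 CPM. Its changes were -0.62 (adjusted p = 8.86e-19) in A375 and 0.40 (adjusted p = 3.73e-13) in SKMel28 by edgeR, without overlap of the groups in either line.

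Both genes lie on chromosome 1, where genes fell together in A375. The median log2 fold change of tested genes at 2 CPM or more within 10 Mb was -0.52 around KDM1A (190 genes) and -0.53 around HDAC1 (206 genes) in A375, and -0.22 and -0.12 in SKMel28. Less those medians, the A375 change was -0.35 for KDM1A and -0.09 for HDAC1, and in SKMel28 it was 0.65 and 0.51. Around HDAC4 the medians were 0.01 in A375 and 0.38 in SKMel28, around HDAC5 -0.00 and -0.12, and around TET2 -0.02 and 0.09. The part of these neighbourhood shifts in the members' changes was not tested.

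The upstream promoter sequences of 4 of these members are shown because they carry the opposite changes of the lines. Sequences sought were those of the 7 members at 1 CPM or more whose change differed by at least 1 on the log2 scale. RefSeq's table (GRCh38.p14) held 6 of the 7, with no entry for HDAC5, and those of KDM4D and KDM5C are not shown because more than 30 of their bases lie in annotated UTR or coding sequence, as do 25 bases of the KDM1A window and 0 of the other windows shown. Each line gives the 250 bases before a listed start site, read 5′ to 3′ on the gene's strand. HDAC4 has 5 listed sites and TET2 has 2, and the one nearest the annotated start of the gene was taken. Which site these cells use was not tested. They lie at chr1:32291833-32292082 on the plus strand, chr2:239401650-239401899 on the minus strand, chr1:23019218-23019467 on the plus strand and chr4:105145625-105145874 on the plus strand. Capitals mark every match, on either strand, to the motifs found.
HDAC1: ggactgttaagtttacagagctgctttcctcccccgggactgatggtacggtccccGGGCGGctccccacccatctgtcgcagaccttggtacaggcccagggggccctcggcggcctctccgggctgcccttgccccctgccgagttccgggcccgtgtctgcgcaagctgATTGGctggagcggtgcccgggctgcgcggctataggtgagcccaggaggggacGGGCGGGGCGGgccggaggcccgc
HDAC4: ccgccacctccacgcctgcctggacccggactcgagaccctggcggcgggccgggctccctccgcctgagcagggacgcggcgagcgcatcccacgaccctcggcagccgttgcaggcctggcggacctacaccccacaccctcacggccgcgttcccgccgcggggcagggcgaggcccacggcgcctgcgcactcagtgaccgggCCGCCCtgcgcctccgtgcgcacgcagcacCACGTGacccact
KDM1A: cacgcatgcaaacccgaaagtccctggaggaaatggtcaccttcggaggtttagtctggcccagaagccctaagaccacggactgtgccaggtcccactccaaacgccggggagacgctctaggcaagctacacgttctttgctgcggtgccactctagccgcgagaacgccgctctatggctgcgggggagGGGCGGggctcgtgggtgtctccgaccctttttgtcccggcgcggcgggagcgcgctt
TET2: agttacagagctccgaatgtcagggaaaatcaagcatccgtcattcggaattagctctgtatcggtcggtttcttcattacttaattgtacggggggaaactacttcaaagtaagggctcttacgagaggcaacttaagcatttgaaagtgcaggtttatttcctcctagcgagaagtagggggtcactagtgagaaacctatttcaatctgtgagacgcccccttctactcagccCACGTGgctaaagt
The windows differed in base composition. HDAC4 had 33 CpG pairs and 76.8% G and C, HDAC1 21 and 71.6%, KDM1A 23 and 64%, and TET2 10 and 45.6%, where the median of all 35116 such windows was 11 CpG pairs with quartiles of 3 and 23. Of 8 motifs searched on both strands, the GC box GGGCGG was found 3 times in HDAC1, where 2 of the matches share 1 base, and 1 time each in HDAC4 and KDM1A. It is in 42.6% of all windows. The CCAAT box was found 1 time in HDAC1 and is in 32% of windows, and it does not overlap a GC box there. HDAC4 and TET2 each held the palindromic E-box CACGTG 1 time, near the start site, and 6.34% of all windows hold it. No window held CATGTG (9.42% of windows), TGACTCA (4.2%), TGACGTCA (1.65%), TTTCCCGC (1.39%) or CCGGAAG (8.52%). A match describes these letters and is not evidence of a bound site.

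**Figure D2:**
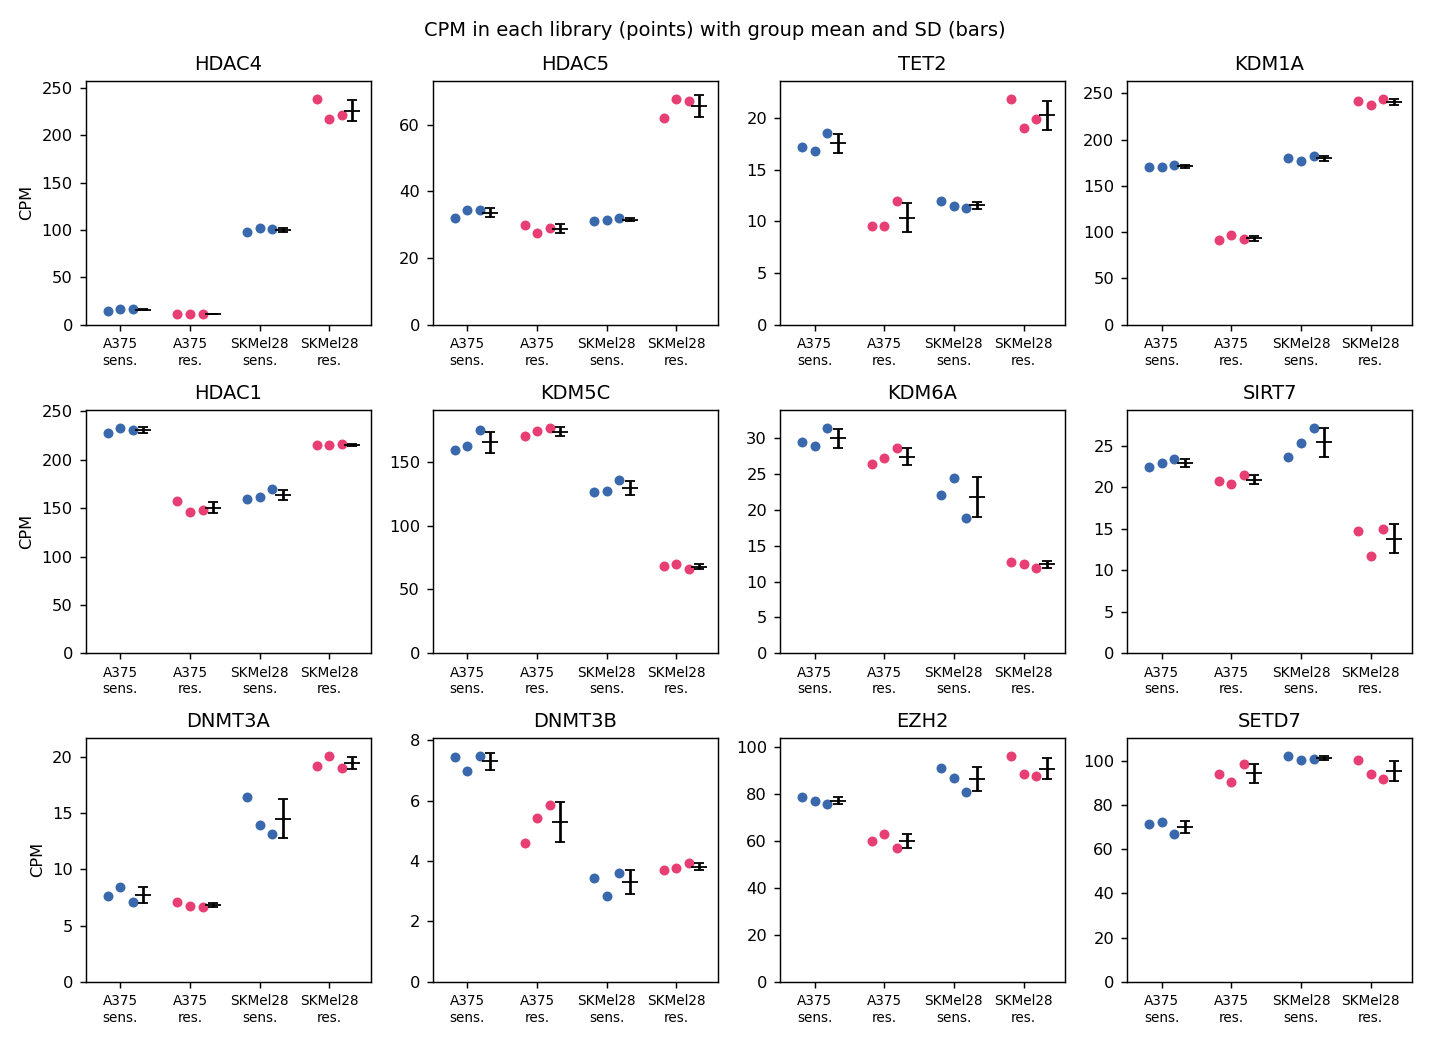
CPM of 12 members in each library (points, blue for sensitive and red for resistant), with the group mean and SD of 3 libraries beside them, on axes that start at 0. HDAC4 and HDAC5 are higher in the resistant than in the sensitive SKMel28 libraries, TET2 crosses over between the lines, and KDM5C, KDM6A and SIRT7 are low in the resistant SKMel28 libraries.

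Among the 3 DNA methyltransferases, DNMT1 and DNMT3B fell in A375, and DNMT1 and DNMT3A rose in SKMel28. DNMT1, which copies methylation to the new strand after replication, fell in A375 from 392, 396 and 400.3 to 353, 349 and 340.0 CPM, a log2 fold change of -0.19 (SE 0.033, edgeR adjusted p = 4.1e-06). In SKMel28 it was at 303, 295 and 299 CPM in resistant and 279, 292 and 275 CPM in sensitive libraries, a change of 0.08 (adjusted p = 0.0244) by edgeR. That small rise was lost with library-size scaling (adjusted p = 0.173) and without SKMel28 resistant library 1 (0.0633) or sensitive library 3 (0.0842). DNMT3A, a de novo methyltransferase, rose in SKMel28 from 16.5, 13.98 and 13.2 to 19.3, 20.1 and 19.1 CPM, by 0.42 on the log2 scale (edgeR adjusted p = 8.57e-05). In A375 its groups lay close, at 6.84 ± 0.206 CPM in resistant and 7.74 ± 0.7 CPM in sensitive cells (adjusted p = 0.166).

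DNMT3B, the second de novo enzyme, fell in A375 from 7.46, 6.98 and 7.48 to 4.58, 5.44 and 5.87 CPM. The log2 fold change there was -0.47 (SE 0.14, edgeR adjusted p = 0.00361), beside -0.44 for the 104 genes around it on chromosome 20. Without A375 resistant library 1, the lowest of the 3, the log2 fold change was -0.34 and the adjusted p became 0.0553. In SKMel28 DNMT3B was at 3.81 ± 0.112 CPM in resistant and 3.30 ± 0.397 CPM in sensitive cells (adjusted p = 0.242). The 2 de novo enzymes also had opposite line preferences, with DNMT3A higher in sensitive SKMel28 and DNMT3B higher in sensitive A375.

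TET3 and TET1, the other methylcytosine dioxygenases, did not share the crossover of TET2. TET3 fell in A375 from 53.5, 55.7 and 53.1 to 42.9, 45.8 and 40.2 CPM (-0.33, SE 0.058, edgeR adjusted p = 4.59e-06), and was at 23.8 ± 1.44 CPM in resistant and 25.1 ± 1.23 CPM in sensitive SKMel28 (adjusted p = 0.291). TET1 was the lowest of the 3, between 1.78 and 4.49 CPM in all 12 libraries. Its groups overlapped in both lines. In SKMel28 its change was 0.46 (SE 0.21, edgeR adjusted p = 0.0517), just short of the threshold, and it passed with DESeq2's size factors, without the low-count filter and with SKMel28 fitted alone (0.0423 to 0.049), and without resistant library 3 (0.0179) or sensitive library 1 (0.0329).

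EZH2, the main catalytic subunit of Polycomb repressive complex 2, fell in A375 and did not pass the test in SKMel28. It was at 59.8, 62.7 and 57.1 CPM in resistant and 78.7, 76.7 and 75.6 CPM in sensitive A375, a log2 fold change of -0.36 (SE 0.049, edgeR adjusted p = 2.05e-08). SKMel28 values overlapped, at 95.98, 88.4 and 87.7 CPM in resistant and 90.8, 86.8 and 80.9 CPM in sensitive libraries (adjusted p = 0.166), and without sensitive library 1 that became a rise of 0.12 (adjusted p = 0.0394). The difference between lines was -0.44 (SE 0.068, edgeR adjusted p = 3.1e-07). EZH1, the alternative subunit, was called lower in A375 (20.3 ± 0.474 against 23.4 ± 0.621 CPM, adjusted p = 0.0202). The EZH1 call was lost in DESeq2 (0.0544), with DESeq2's size factors (0.0567), without the low-count filter (0.0731) and without A375 resistant library 1, 2 or 3 or sensitive library 3 (0.0563 to 0.122).

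Of the 5 KMT2 genes, which encode methyltransferases of histone H3 lysine 4 and their relative KMT2E, 3 were lower in resistant A375 (60%, beside 26.3% of all genes), while SKMel28 had 2 higher and 2 lower (40% each, beside 34.2% and 35.8%). KMT2C, an enhancer methyltransferase, fell in A375 from 72.5, 72.3 and 72.4 to 57.3, 57.1 and 57.3 CPM (-0.34, SE 0.051, edgeR adjusted p = 3.35e-07), though copies of parts of this gene elsewhere in the genome make its counts uncertain. KMT2A fell in A375 (134 ± 3.48 to 119 ± 5.50 CPM, adjusted p = 0.00174) and KMT2E likewise (43.8 ± 0.249 to 38.8 ± 2.24 CPM, 0.0101), though the KMT2E call ended in DESeq2 (0.0604) and without resistant library 2 (0.236). In SKMel28 KMT2E rose by 0.31 on the log2 scale (edgeR adjusted p = 2.31e-06). KMT2A's SKMel28 change of 0.14 passed the test (adjusted p = 0.0143), but its groups overlapped there. That call ended without resistant library 1 (0.157) or sensitive library 3 (0.141) and with library-size scaling (0.0683), and the A375 call ended without resistant library 2 (0.0952). KMT2B fell in SKMel28 from 72.2 ± 2.50 to 55.5 ± 2.15 CPM (-0.38, adjusted p = 7.18e-10).

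KMT2D, the second enhancer methyltransferase, was the most variable of the family. Sensitive SKMel28 libraries spread over 148, 169 and 129 CPM and overlapped the resistant ones at 135, 129 and 124 CPM. Its call in SKMel28 (-0.20, adjusted p = 0.0246) was lost without resistant library 2 or 3 or sensitive library 1 or 2 (0.0525 to 0.137) and when SKMel28 was fitted alone (0.0544). In A375 it was at 176 ± 6.17 CPM in resistant and 194 ± 5.45 CPM in sensitive cells, which did not overlap but missed the threshold (adjusted p = 0.112). A375 fitted alone gave 0.000107 for the same comparison, and all genes without the low-count filter 0.0214.

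Of the 10 SETD proteins, 1 rose and 1 fell in A375 (10% each, beside 25% and 26.3% of all genes), and in SKMel28 5 rose (50%, beside 34.2%) and 1 fell (10%, beside 35.8%). SETD2, the enzyme that trimethylates lysine 36 of histone H3 along transcribed genes, rose there from 47.1, 46.8 and 39.8 to 68.7, 65.3 and 61.4 CPM (0.55, SE 0.055, edgeR adjusted p = 6.31e-12). In A375 it stayed within the spread of its libraries, at 78.6 ± 3.06 and 79.6 ± 1.93 CPM (adjusted p = 0.792). Its A375 change less its SKMel28 change was -0.57 (adjusted p = 1.17e-08). SETD5 rose in SKMel28 from 63.6, 59.3 and 58.5 to 90.2, 84.5 and 79.4 CPM (0.49, adjusted p = 3.85e-12) and fell in A375 from 106, 104 and 106 to 90.1, 87.1 and 95.5 CPM (-0.21, adjusted p = 0.000118). SETD1B, a COMPASS methyltransferase, fell in SKMel28 from 42.9, 43.6 and 41.96 to 28.4, 26.4 and 29.2 CPM (-0.61, SE 0.058, edgeR adjusted p = 1.19e-12), while its paralog SETD1A did not pass the test in either line. SETD1A was called higher in A375 with DESeq2, its size factors, library-size scaling, no filter or that line alone (0.0183 to 0.0293) and without A375 resistant library 2 or 3 (0.0335 and 0.0481), and in SKMel28 without sensitive library 3 (0.00485).

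SETD7, a monomethyltransferase with histone and other protein substrates, had the largest called rise of all members in A375. It was at 94.1, 90.4 and 98.9 CPM in resistant and 71.4, 72.2 and 67.04 CPM in sensitive A375 (0.43, SE 0.045, edgeR adjusted p = 5.37e-11). In SKMel28 it was at 95.5 ± 4.55 CPM in resistant and 101 ± 0.961 CPM in sensitive libraries (adjusted p = 0.0856). With library-size scaling, and without resistant library 1, this SKMel28 difference was called lower (0.0169 and 0.0196). SETD8, which places the first methyl group on lysine 20 of histone H4 and is listed as KMT5A in current annotation, rose in SKMel28 by 0.32 (edgeR adjusted p = 5.09e-08) and did not pass the test in A375, at 88.1 and 87.6 CPM. SETD3 and SETD9 also rose in SKMel28, by 0.14 and 0.36, and SETD4 and SETD6 passed in neither line. The SETD3 rise ended with library-size scaling (0.0622), which gave SETD6 as lower (0.021), as did leaving out resistant library 3 (0.0415). In A375 SETD3 missed the threshold but was called higher with DESeq2, its size factors, library-size scaling, no filter or that line alone (0.00991 to 0.045) and without resistant library 2 or 3 (0.0322 and 0.00727).

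Of the 17 lysine demethylases tested, A375 showed 2 higher (11.8%, beside 25% of all genes) and 6 lower (35.3%, beside 26.3%), and SKMel28 showed 6 higher (35.3%, beside 34.2%) and 7 lower (41.2%, beside 35.8%). KDM4A, which removes methyl groups from lysines 9 and 36 of histone H3, joined KDM1A in the opposite pattern. It was at 37.5, 37.9 and 37.02 CPM in resistant and 54.8, 55.9 and 50.1 CPM in sensitive A375 (-0.52, SE 0.054, edgeR adjusted p = 4.21e-11). In SKMel28 it was at 69.2, 69.4 and 63.6 and 52.1, 50.8 and 55.3 CPM (0.35, SE 0.052, edgeR adjusted p = 9.25e-08). Its A375 fall was close to that of its chromosome 1 neighbours (median -0.53). Unstranded counting cannot assign reads in the exon bases that KDM4A shares with the opposite strand (464 of 5172). KDM4B went the other way, higher in resistant A375 (32.4 ± 1.55 against 28.2 ± 1.37 CPM, adjusted p = 0.00625) and lower in resistant SKMel28 (24.5 ± 0.987 against 31.99 ± 0.53 CPM, 1.34e-06). Without A375 sensitive library 1 the KDM4B rise missed the threshold (0.0649). KDM4C did not pass in either line.

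KDM4D, the fourth tested member of that group and the scarcest, fell in A375. It was at 2.38, 1.87 and 2.27 CPM in resistant and 4.71, 3.72 and 3.29 CPM in sensitive libraries, from 223 and 408 reads in all. The log2 fold change was -0.85 (SE 0.20, edgeR adjusted p = 0.000255), whereas in SKMel28 it was 0.36 (SE 0.21, edgeR adjusted p = 0.135), which did not pass. The genes around it did not share the A375 fall (median 0.07).

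The KDM5 demethylases of trimethylated lysine 4 of histone H3 parted from one another. KDM5C, on the X chromosome, showed the largest fall in SKMel28 among members at 1 CPM or more, from 126, 127 and 136 to 68.4, 69.6 and 65.8 CPM (-0.93, SE 0.042, edgeR adjusted p = 3.35e-23). In A375 its libraries overlapped, at 169.8, 174 and 177 CPM in resistant and 159, 162 and 175 CPM in sensitive cells (adjusted p = 0.13). That A375 difference of 0.07 was called higher with DESeq2, its size factors, library-size scaling or no low-count filter (adjusted p = 0.0213 to 0.0272) and without resistant library 1 (0.0258) or sensitive library 3 (0.0325). KDM5A rose in SKMel28 from 53.3, 51.5 and 55.3 to 73.3, 67.05 and 62.1 CPM (0.34, adjusted p = 1.96e-07) and narrowly missed the threshold in A375 (-0.11, adjusted p = 0.0551, and 0.0172 with that line fitted alone). KDM5B, a demethylase described as marking slow-cycling melanoma cells, fell in A375 from 86.2, 93.6 and 85.9 to 79.03, 74.7 and 78.97 CPM (-0.19, adjusted p = 0.000585). In SKMel28 it was at 67.6 ± 3.15 and 70.4 ± 2.67 CPM, with overlap (adjusted p = 0.282).

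KDM6A and KDM6B, demethylases of histone H3 lysine 27 that oppose EZH2, both fell in SKMel28. KDM6A went from 22.01, 24.4 and 18.9 to 12.8, 12.5 and 11.9 CPM (-0.81, SE 0.083, edgeR adjusted p = 8.16e-12) and KDM6B from 40.9, 40.96 and 40.3 to 28.1, 29.5 and 30.3 CPM (-0.47, SE 0.057, edgeR adjusted p = 7.74e-10). KDM6B also fell in A375, from 44.6 ± 0.785 to 37.9 ± 1.37 CPM (-0.23, adjusted p = 0.000391), while KDM6A there was -0.13 (adjusted p = 0.153). Like KDM5C, KDM6A lies on the X chromosome, whose genes within 10 Mb fell by a median of 0.87 around KDM6A and 0.86 around KDM5C in SKMel28. The genes around KDM6B, on chromosome 17, had a median of 0.07.

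Among the remaining demethylases, KDM2A, which binds unmethylated CpG and acts on lysine 36, fell in SKMel28 from 70.4, 68.3 and 69.3 to 50.8, 51.9 and 49.7 CPM (-0.45, adjusted p = 6.68e-12) and did not change detectably in A375 (106 and 108 CPM). KDM3B, which acts on lysine 9 of histone H3, rose in SKMel28 (81.2 ± 4.29 to 113 ± 2.71 CPM, 0.48, adjusted p = 2.27e-13). It also rose in A375 (90.9 ± 3.10 to 100.3 ± 0.413 CPM, 0.14, adjusted p = 0.00466), missing the threshold without sensitive library 2 (0.057). KDM8 rose in SKMel28 from 2.13, 2.59 and 2.05 to 3.26, 4.26 and 4.11 CPM, on 204 and 382 reads in all (0.78, SE 0.18, edgeR adjusted p = 0.000204). KDM7A fell in both lines at low level, to 4.88 ± 0.647 CPM in A375 (sensitive 6.34 ± 0.584) and 4.75 ± 0.462 CPM in SKMel28 (sensitive 6.22 ± 1.38) (adjusted p = 0.0275 and 0.02). Those 2 calls are fragile. The first ended without A375 resistant library 1 or 2 or sensitive library 1 or 3 and in DESeq2 (0.0539 to 0.145), and the second without SKMel28 resistant library 2 or 3 or sensitive library 1 (0.0679 to 0.305). KDM1B fell and KDM3A rose in SKMel28, with log2 fold changes of -0.23 and 0.14, the latter with overlapping groups and lost without resistant library 1 (0.2) or 2 (0.0833) or sensitive library 3 (0.108) and with library-size scaling (0.104). KDM2B passed in neither line.

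Among the 7 acetyltransferases, KAT2A (GCN5) and KAT2B (PCAF), 2 alternative subunits of the same coactivator complexes, both rose in A375 and parted in SKMel28. KAT2A was at 101, 97.7 and 96.5 CPM in resistant and 79.3, 77.7 and 78.2 CPM in sensitive A375 (0.33, SE 0.042, edgeR adjusted p = 9.62e-09). In SKMel28 it fell from 75.7, 74.8 and 71.9 to 59.6, 60.9 and 61.04 CPM (-0.29, SE 0.044, edgeR adjusted p = 1.35e-07). KAT2B rose in SKMel28 from 72.1, 77.3 and 75.1 to 99.5, 99.4 and 97.7 CPM (0.40, SE 0.047, edgeR adjusted p = 3.94e-10) and in A375 from 24.8, 25.98 and 24.2 to 29.4, 26.9 and 28.3 CPM (0.17, adjusted p = 0.00848). KAT7 fell in A375 (68.03 ± 1.81 to 55.9 ± 1.88 CPM) and rose slightly in SKMel28 (52.1 ± 1.84 to 57.05 ± 2.71 CPM, adjusted p = 0.02), a rise lost with library-size scaling (0.0947) and without resistant library 1 (0.134) or sensitive library 3 (0.0609). KAT6B and KAT8, the latter the main acetyltransferase of lysine 16 of histone H4, rose in SKMel28 by 0.30 and 0.26 on the log2 scale. KAT6A fell there (-0.20) with overlapping groups, though not without resistant library 3 (0.0805), and KAT5 (TIP60), whose exons overlap those of RNASEH2C, passed in neither line.

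Of the 11 deacetylases, 5 (HDAC1 to HDAC5) were called lower in A375 and higher in SKMel28 (45.5%, beside 9.86% of all genes). In A375, 6 fell (54.5%, beside 26.3%) and 1, HDAC7, rose (9.09%, beside 25%). In SKMel28, 7 rose (63.6%, beside 34.2%) and 1, HDAC6, fell (9.09%, beside 35.8%). Among the class I enzymes, which form the catalytic core of most nuclear corepressor complexes, HDAC2 followed HDAC1. HDAC2 rose in SKMel28 from 143, 146 and 145 to 200.1, 198 and 198 CPM (0.46, SE 0.037, edgeR adjusted p = 9.7e-15) and fell in A375 from 155, 162 and 157 to 133, 144 and 134 CPM (-0.20, SE 0.037, edgeR adjusted p = 9.62e-06). Its neighbours on chromosome 6 had a median of 0.33 in SKMel28 and -0.01 in A375. HDAC3 changed less, at 80.1 ± 1.89 and 86.3 ± 1.88 CPM in sensitive and resistant SKMel28 (0.11, adjusted p = 0.0253), a rise lost without resistant library 3 (0.0863) or sensitive library 3 (0.0777) and with library-size scaling (0.133). HDAC8 passed in neither line, but was called lower in SKMel28 with library-size scaling (0.0285).

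In the class IIa group, HDAC9 joined HDAC4 and HDAC5 in rising in SKMel28, from 43.5, 41.2 and 46.2 to 54.8, 53.1 and 53.5 CPM (0.30, SE 0.069, edgeR adjusted p = 0.000167), although its neighbours had a median of -0.35. HDAC9 libraries overlapped in A375 at 8.47 ± 0.0291 and 8.18 ± 1.62 CPM. HDAC7 behaved differently from those 3. It rose in A375 from 93.7, 90.5 and 92.4 to 107, 101 and 111 CPM (0.21, SE 0.047, edgeR adjusted p = 0.000243) and was at 22.3 and 22.5 CPM in resistant and sensitive SKMel28, with overlap. HDAC6, the cytoplasmic tubulin deacetylase of class IIb, fell in SKMel28 from 22.9, 25.1 and 28.1 to 16.4, 17.6 and 15.7 CPM (-0.62, SE 0.081, edgeR adjusted p = 6.31e-09) and in A375 from 17.1, 16.6 and 17.8 to 12.9, 13.8 and 14.2 CPM (-0.33, SE 0.084, edgeR adjusted p = 0.00091). HDAC6 is on the X chromosome, with a neighbourhood median of -0.86 in SKMel28 and 0.03 in A375. HDAC11, the class IV enzyme, rose in SKMel28 (8.93 ± 0.618 to 11.6 ± 0.559 CPM, adjusted p = 0.00171), and HDAC10, whose exons overlap those of MAPK12, passed in neither line. HDAC10 was called higher in A375 with DESeq2's size factors, library-size scaling or no filter (0.029 to 0.0464) and without resistant library 1 (0.00157).

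Of the 7 sirtuins, 2 rose in A375 (28.6%, beside 25% of all genes), and in SKMel28 1 rose (14.3%, beside 34.2%) and 3 fell (42.9%, beside 35.8%). SIRT7, a nucleolar deacetylase of lysine 18 of histone H3, went from 23.6, 25.4 and 27.2 to 14.7, 11.8 and 15.01 CPM (-0.88, SE 0.082, edgeR adjusted p = 7.48e-13). SIRT6, which acts on lysine 9 of histone H3, went from 22.5, 25.3 and 23.9 to 16.9, 17.3 and 19.6 CPM (-0.41, SE 0.078, edgeR adjusted p = 1.08e-05). Genes around them also lay lower, with medians of -0.32 and -0.26. Neither passed in A375, where SIRT7 was at 20.9 ± 0.56 and 22.9 ± 0.493 CPM and SIRT6 at 28.7 ± 1.33 and 28.4 ± 3.01 CPM. SIRT1, the third nuclear member, overlapped between groups in both lines, at 26.96 and 27.1 CPM in A375 and 27.9 and 30.3 CPM in SKMel28. The SIRT1 difference in SKMel28 (-0.12, adjusted p = 0.113) was called lower with library-size scaling (0.0396) and without sensitive library 1 (0.0293).

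SIRT5, the mitochondrial desuccinylase, rose in both lines to a like extent. A375 libraries held 8.19, 7.41 and 8.31 CPM when sensitive and 10.4, 10.1 and 10.5 CPM when resistant (0.38, SE 0.10, edgeR adjusted p = 0.00159). Those of SKMel28 held 12.4, 16.1 and 14.95 and 19.96, 20.1 and 18.8 CPM (0.44, SE 0.091, edgeR adjusted p = 3.8e-05). The difference between lines, -0.06 with an SE of 0.14, did not pass the test. SIRT2, a mainly cytoplasmic deacetylase, rose in A375 (21.6 ± 1.07 to 24.8 ± 1.10 CPM, adjusted p = 0.00859, and 0.0526 without sensitive library 2) and not detectably in SKMel28. SIRT3 passed in neither line. SIRT4, named here after its values were seen, was below 1 CPM in all 4 groups on average and fell in SKMel28 on 61 and 24 reads in all (-1.46, adjusted p = 0.00635), a call lost without sensitive library 3 (0.085).

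The share of called members whose neighbours had moved with them was close to that of all called genes in each line. In A375, neighbours had shifted the same way by at least 0.25 for 4 of the 31 called members (12.9%, beside 14.6% of all called genes): KDM1A, HDAC1 and KDM4A on chromosome 1, whose median over 1320 genes was -0.32, and DNMT3B on chromosome 20, with a median of -0.40 over 353 genes. In SKMel28 this held for 14 of the 44 called members (31.8%, beside 32.6%), among them HDAC6, KDM5C and KDM6A on the X chromosome, whose median was -0.39 over 460 genes. After subtraction of the neighbours' median, 2 members were lower by 1.5-fold or more in A375 (KDM4D and TET2) and 1 in SKMel28 (SIRT4). Higher by that margin in SKMel28 were HDAC4, HDAC5, HDAC9, KDM1A and TET2. This subtraction was chosen after the data had been examined. The share of all genes that reach that margin after it is not given, so these counts stand without a background.

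**Figure D3:**
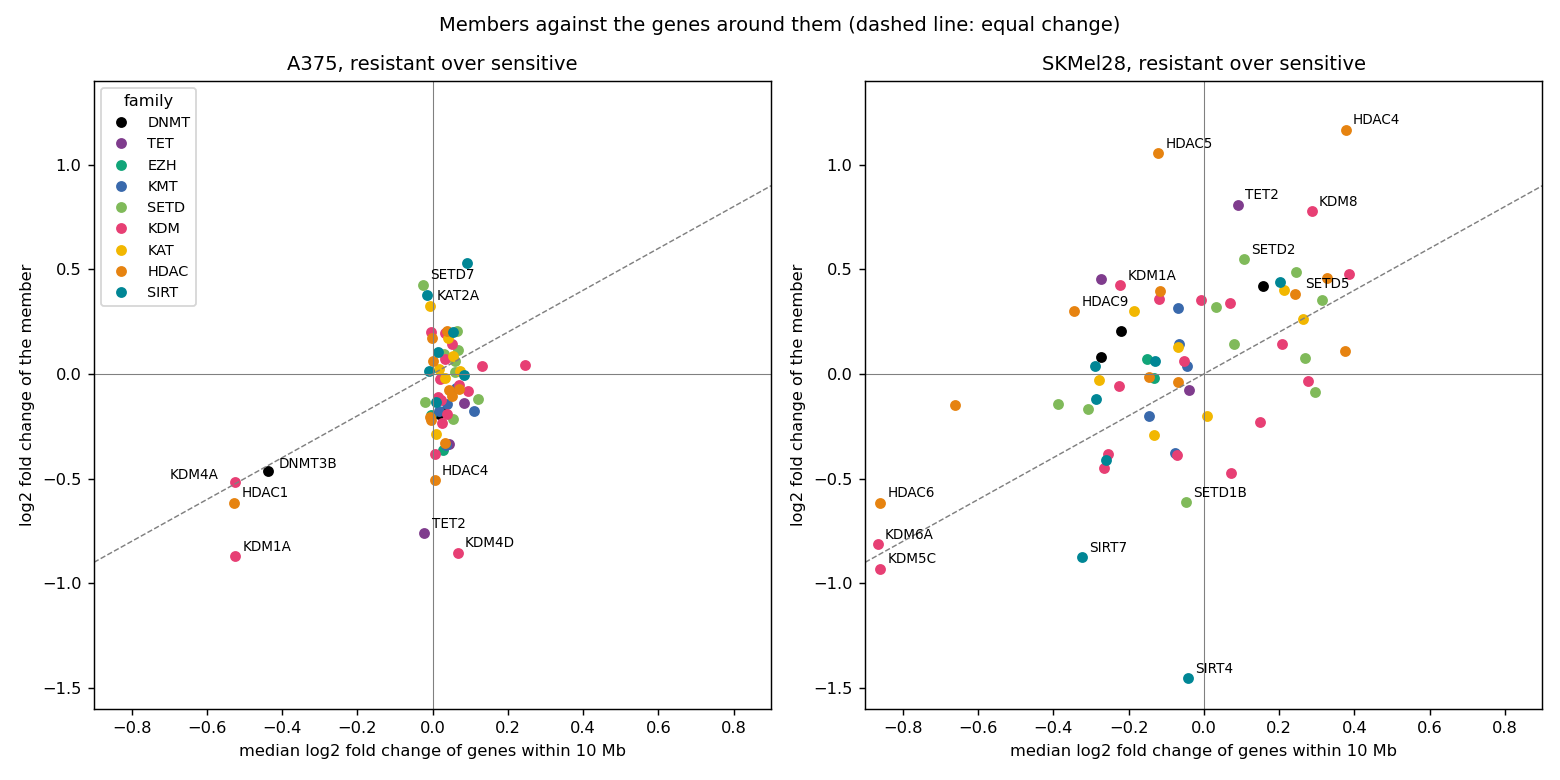
Log2 fold change of each tested member (vertical axis) against the median log2 fold change of the genes within 10 Mb (horizontal axis) in A375 (left) and SKMel28 (right), with a dashed line of equal change. KDM1A, HDAC1, KDM4A and DNMT3B sit at the left in A375, at medians of -0.53 to -0.44, and KDM5C, KDM6A and HDAC6 sit at the left in SKMel28, at -0.87 to -0.86, while TET2 and HDAC5 moved with neighbour medians between -0.12 and 0.09 in both panels.

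The lines already differed before resistance. Of the 65 members, 56 (86.2%) were called between sensitive A375 and sensitive SKMel28, beside 82.9% of all genes, 18 of them at least 1.5-fold higher in A375 (27.7%, beside 28.9% of all genes) and 9 at least 1.5-fold lower (13.8%, beside 28.3%). This comparison shares the sensitive libraries with those above. Class IIa deacetylases spanned the whole range. HDAC7 was higher in sensitive A375 at 93.7, 90.5 and 92.4 CPM than in sensitive SKMel28 at 21.6, 22.2 and 23.7 CPM, a log2 difference of 2.03 (SE 0.054, edgeR adjusted p = 1.01e-32). HDAC4 and HDAC9 were higher in sensitive SKMel28, with log2 differences of -2.65 (adjusted p = 1.5e-37) and -2.42 (adjusted p = 5.14e-28) by edgeR. With library-size scaling the median of all genes in this comparison shifted by 0.15.

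Higher in sensitive A375 were also KDM4C (31.3 ± 1.73 against 12.3 ± 0.456 CPM, log2 difference 1.35), KMT2A (134 ± 3.48 against 52.7 ± 4.07 CPM, 1.35), DNMT3B (1.14), TET3 (54.1 ± 1.42 against 25.1 ± 1.23 CPM, 1.11) and KDM4D (1.10). All 3 TET genes were at least 1.5-fold higher there. Higher in sensitive SKMel28 were KAT2B (74.8 ± 2.57 against 25.01 ± 0.896 CPM, -1.58), KDM1B (27.4 ± 1.09 against 10.8 ± 0.643 CPM, -1.34), SIRT2 (-0.94) and KDM3A (-0.92). Those named by the size of their difference were chosen among members that passed the edgeR test, and their groups did not overlap. The least certain of them was KDM4D, at an edgeR adjusted p of 4.27e-06. KDM1A, HDAC5 and KDM4A, which moved apart with resistance, did not pass between the sensitive lines (adjusted p = 0.0574, 0.142 and 0.666).

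**Figure D4:**
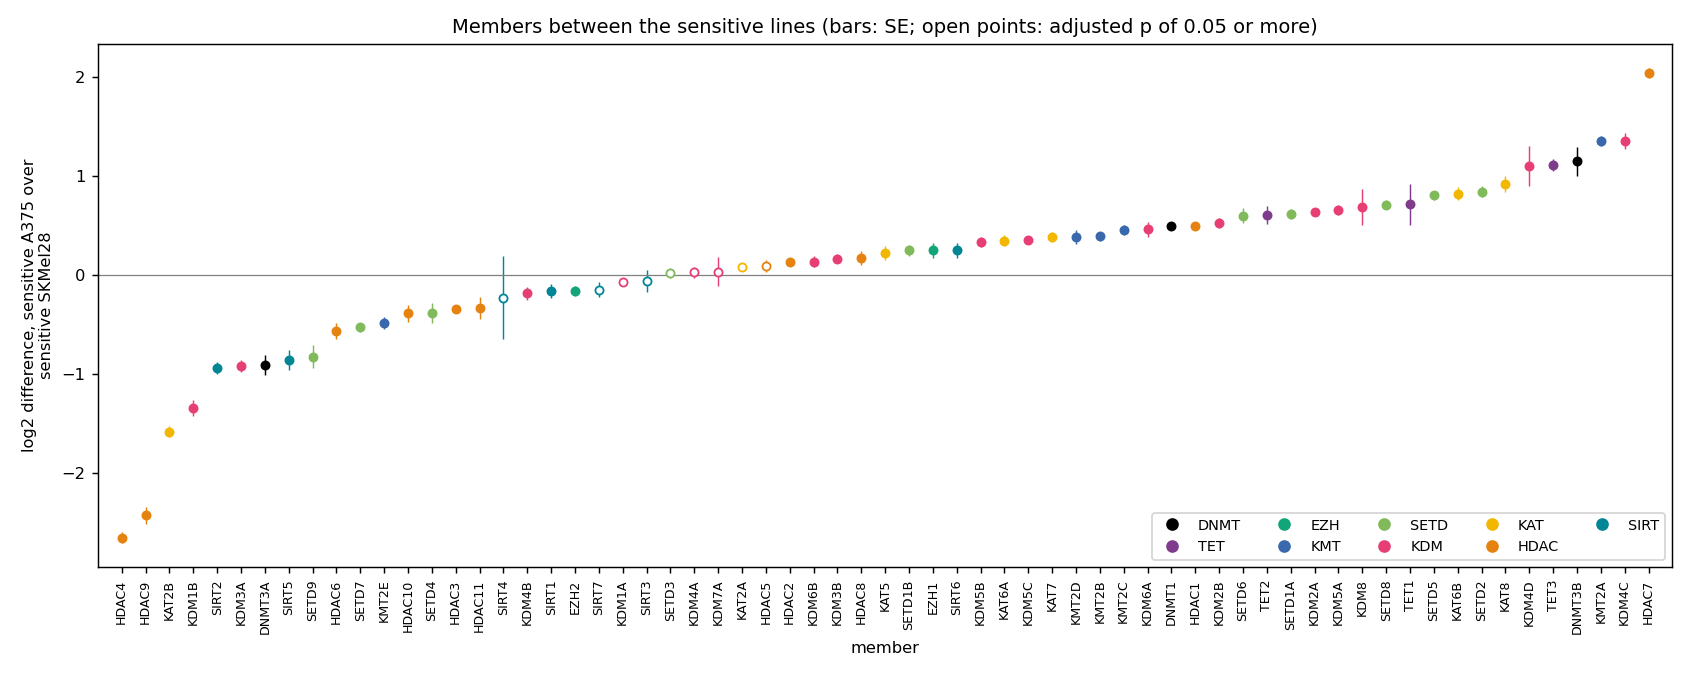
Log2 difference of each tested member between sensitive A375 and sensitive SKMel28, in order of its value, with standard errors as bars, colours for families and open points for members that did not pass the test. HDAC4 and HDAC9 lie at the far left and HDAC7 at the far right.

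Levels of different genes were compared per kb of the longest coding transcript. HDAC1 was highest in all 4 groups, from 70.8 CPM per kb in resistant A375 to 109 in sensitive A375, and in every group all its libraries were above those of the next member. In sensitive A375 DNMT1 (73.3) and KDM1A (55.9) followed, and in sensitive SKMel28 KDM1A (58.7) and DNMT1 (52.2). In resistant A375 KDM1A stood at 30.5 CPM per kb, and its libraries overlapped those of KAT2A at 31.6. HDAC4 reached 25.1 CPM per kb in resistant SKMel28, in the 6th place of 65. TET1, KDM7A and SIRT4 were below 1 CPM per kb in all 4 groups.

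A list of 102 further genes is called partners here. It held subunits of the enzymes' complexes, other methyltransferases, demethylases and acetyltransferases, DNA methylation genes and proteins that bind acetyl-lysine. Of the 102, 98 were in the files and 94 were tested. A375 had 11 called higher (11.7%, beside 25% of all genes) and 38 lower (40.4%, beside 26.3%), 6 of the latter by 1.5-fold or more (6.38%, beside 10.8%). SKMel28 had 38 called higher (40.4%, beside 34.2%) and 34 lower (36.2%, beside 35.8%), with 5 and 12 of them at 1.5-fold or more (5.32% and 12.8%, beside 15.8% and 19.3%). Their median log2 fold change was -0.07 in A375 and 0.02 in SKMel28, where all genes had 0.00 and -0.01. Those named had the smallest adjusted p per line among partners called at 1.5-fold or more. RBBP4, the histone-binding subunit shared by Polycomb, NuRD and Sin3 complexes, moved as KDM1A and HDAC1 did. It fell in A375 from 139 ± 2.02 to 83.1 ± 0.312 CPM (-0.74, SE 0.038, edgeR adjusted p = 6.07e-21) and rose in SKMel28 from 121 ± 3.37 to 239 ± 5.03 CPM (0.99, SE 0.036, edgeR adjusted p = 1.87e-26). It too lies on chromosome 1, with neighbour medians of -0.53 and -0.10. RBBP7, its paralog on the X chromosome, fell in SKMel28 from 166 ± 1.61 to 108 ± 2.86 CPM (-0.61, adjusted p = 1.77e-19, neighbour median -0.52).

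In A375 PRDM2 (-0.90), PRMT6 (-0.75) and MIER1 (-0.63), all on chromosome 1, fell with neighbour medians of -0.55, -0.53 and -0.62. HR, a demethylase of the JmjC family, fell from 139 ± 3.33 to 87.1 ± 2.40 CPM (-0.67, adjusted p = 5.61e-16) while its neighbours had a median of 0.06. In SKMel28 the Polycomb-like protein PHF19 fell from 203 ± 6.61 to 77.2 ± 4.87 CPM (-1.39, SE 0.041, edgeR adjusted p = 5.48e-30, neighbour median -0.52). The coactivator NCOA3 and, on the X chromosome, the demethylase PHF8 fell too (-1.15 and -1.14 on the log2 scale), with neighbour medians of -0.47 and -0.83. A set of 17 S phase and proliferation genes, with MKI67 and TOP2A among them, was followed because DNMT1 and EZH2 are more abundant in cycling cells. In A375, 13 of the 17 fell and 0 rose by edgeR (median log2 fold change -0.18), beside 26.3% and 25% of all genes. The count of 0 higher also held at an unadjusted p below 0.05 and in DESeq2. In SKMel28 8 of the 17 rose and 6 fell, beside 34.2% and 35.8% of all genes. In bulk libraries fewer cycling cells and less RNA per cell cannot be told apart, and the part of this in the members' changes was not tested.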

How the data were processed

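Poly(A)-selected RNA of 12 libraries was sequenced in paired reads on a NovaSeq, per the labels' protocols. The authors deposited unnormalised read counts, 1 file per library with a row per gene symbol, each with 5 summary lines that were left out of library sizes and tests (15.13% to 19.45% of counted reads). Build GRCh38.p12 and the tools HISAT2 and StringTie are named in the submitters' processing notes, while the deposited file names point to STAR, untrimmed reads and unstranded counting on hg38, so the aligner is not settled. Reads in bases shared by overlapping or antisense genes cannot be told apart.

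Counts were filtered with filterByExpr, scaled by TMM and fitted with edgeR 4.0.16 (robust quasi-likelihood, R 4.3.3) as 4 group means with 8 residual degrees of freedom, and p-values were adjusted by Benjamini-Hochberg over 15506 genes. Contrasts were resistant minus sensitive in each line, their difference, and sensitive A375 minus sensitive SKMel28. CPM values are given as mean ± SD over 3 libraries. Alternatives were DESeq2 1.42.0, DESeq2's size factors, library size alone, no low-count filter, a replicate block, each line fitted alone and each library left out in turn. Positions and transcript lengths came from GENCODE 29 (GRCh38), to which 23877 of 26499 symbols matched directly and 716 by another symbol. Neighbour medians used genes at 2 CPM or more within 10 Mb. The floor for genes without reads is 3 reads, and it covers counting error only. Replicates differed by more than counting noise (chi-square over degrees of freedom 2.77 to 7.14), so none was a copy. The steps were tested on simulated counts.

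The members, gene lists and tests were chosen with earlier results of these data known. Named members were, per line, the 8 largest rises and falls among called members at 1 CPM or more whose groups did not overlap, the 8 largest differences between lines, 6 per direction between the sensitive lines, and a core of 21. Of the partners, the 5 with the smallest adjusted p per line among those called at 1.5-fold or more were named. Other members are given where their family is described.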

Additional observations from a re-analysis of the deposited data

Results flagged for a closer look

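The change with resistance differed between A375 and SKMel28, by a test of the difference itself, most strongly for 8 members at 1 CPM or more. The A375 log2 fold change less that of SKMel28 was -1.67 for HDAC4, -1.57 for TET2, -1.29 for KDM1A, -1.28 for HDAC5, -1.21 for KDM4D, -1.01 for HDAC1, 1.00 for KDM5C and -0.87 for KDM4A. Passing the edgeR test after adjustment over all genes was a condition for this choice. The largest adjusted p of the 8 was 0.000318, for KDM4D. In HDAC4, TET2, KDM1A, HDAC5, HDAC1 and KDM4A all 3 resistant libraries lay below all 3 sensitive ones in A375 and above them in SKMel28. These members were picked for their large differences, so this order describes them and adds no support. KDM1A, HDAC1 and KDM4A lie on chromosome 1, whose genes had a median log2 fold change of -0.32 in A375.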

How the results depend on the processing

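Counts of called members stayed within 1.5 times of the reported ones under the other tools, scalings, filters and fits listed under processing. Leaving out 1 library at a time gave 28 to 31 called members in A375 (6 to 10 higher, 18 to 22 lower, 3 or 4 lower by 1.5-fold), 39 to 45 in SKMel28 (24 to 30 higher, 14 to 17 lower), 39 to 44 for the difference between lines and 52 to 56 between the sensitive lines. Less the neighbours' median, a setting chosen after the data were seen, 2 members were lower by 1.5-fold or more in A375 and 1 in SKMel28, in place of 4 and 6. Higher by that margin in SKMel28 were 5 in place of 4, with HDAC9 and KDM1A added and KDM8 lost. No share of all genes stands beside these counts, so whether such shifts are unusual is not known.

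Replicate numbers did not pair the libraries: same-numbered deviations correlated at 0.0301, -0.0024 and 0.00466 in A375 and at 0.0471, 0.00767 and 0.0262 in SKMel28. With the replicate block, 8 members were higher and 24 lower in A375, and 29 higher and 16 lower in SKMel28. It changed the call of 4 members: KMT2D (adjusted p = 0.00324), KDM5A (0.0375) and HDAC3 (0.0524) in A375, and TET1 (0.0497) in SKMel28.

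Among the 65 tested members, direction turned under these alternatives only where the member was not called in that line. In A375, KDM2A became 0.0107 with DESeq2 or its size factors, 0.0056 with library size alone and 0.0059 without the filter. SETD2 became 0.0170, 0.0168, 0.0116 and 0.0119 with DESeq2, its size factors, library size alone and no filter, SIRT1 0.0290, 0.0289, 0.0235 and 0.0239, and KAT8 0.0160, 0.0159, 0.0101 and 0.0110. HDAC7 in SKMel28 became 0.0018 without the filter. Across single left-out libraries the A375 log2 fold change ran from -0.0974 to 0.0009 for HDAC8, -0.0784 to 0.2213 for HDAC9, -0.1166 to 0.0446 for HDAC11, -0.0163 to 0.1243 for KAT5, -0.0541 to 0.0621 for KAT8, -0.0332 to 0.027 for KDM2A, -0.014 to 0.1389 for KDM3A, -0.0024 to 0.1088 for KDM4C, -0.0391 to 0.0356 for SETD2, -0.0052 to 0.0494 for SETD8, -0.0457 to 0.053 for SIRT1, -0.0509 to 0.0975 for SIRT6 and -0.2471 to 0.075 for TET1. In SKMel28 it ran from -0.0681 to 0.0165 for EZH1, -0.0441 to 0.0295 for HDAC7, -0.0745 to 0.0065 for HDAC10, -0.0853 to 0.0242 for KDM4C, -0.0174 to 0.0976 for KMT2C and -0.0766 to 0.1243 for SIRT3. The cause was not tested. Depth limits SIRT4, KDM4D, TET1 and KDM8 most, with 24 to 425 reads per group.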
